A study of Caenorhabditis elegans with 9 samples.

Results

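Loss of *nhr-114* was compared with wild type by RNA-seq of whole worms (Caenorhabditis elegans) in 6 libraries, all made at the last larval stage before adulthood (L4). The samples were chosen by their labels and are 6 of the 9 libraries of the series. The 3 wild-type libraries and the 3 libraries of animals with the gk849 allele of *nhr-114* all came from mothers given vehicle. The 3 other libraries, of gk849 animals whose mothers received 8 µM vitamin B12, carry the same allele. Their levels are set beside the comparison. They also entered the fit of all 9 libraries that gave the p-values of single genes. The labels do not state which part of the gene gk849 removes, nor whether the replicates are separate cultures. The p-values therefore reflect only how much these libraries vary, and part of that variation may be technical. In RNA from whole animals, fewer cells of a type and less RNA per cell cannot be told apart.

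NHR-114 is a nuclear hormone receptor of the HNF4 family, and intestinal nuclear receptors of this family regulate genes of nutrient and lipid metabolism in the worm. Vitamin B12 serves as cofactor of methionine synthase, which feeds the S-adenosylmethionine used for methylation and for phosphatidylcholine synthesis. It also serves methylmalonyl-CoA mutase, which completes the canonical breakdown of propionate, and a B12-independent shunt removes propionate when the vitamin is scarce. In these animals the receptor is known for its part in germline development and fertility on some bacterial diets.

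The vehicle libraries held 14461993 to 16425225 estimated counts, with 14065 to 14467 genes at 10 or more counts in a library. Levels are given as CPM, a gene's counts scaled to the size of its library, and a call is an adjusted p under 0.05 in edgeR's quasi-likelihood test with Benjamini-Hochberg adjustment over 14795 genes. Every adjusted p given for a gene is of that kind. *nhr-114* (WBcel235 chromosome V, 4187202 to 4190008) was estimated at 6954, 8027 and 7436 counts in wild type, against 3, 4 and 4 in the mutant. Wild type exceeded the mutant by a ratio of 1950 over the summed counts, with a 95% counting interval of 1090 to 3900 that covers counting error only. In wild type these counts were assigned to transcripts of 1423 and 1347 bases, and the few counts in the mutant to transcripts of 1405 and 1329 bases.

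Differences between mutant and wild type ran through a large part of the tested transcriptome. Of 14795 genes tested, 5422 (36.6%) were called, with 2714 (18.3%) higher and 2708 (18.3%) lower in the mutant. The median log2 fold change over all tested genes was 0.01. Changes of at least 2-fold were called for 1090 genes (7.37%) upward and 1712 genes (11.6%) downward, while 48.3% of the calls were smaller than 2-fold. At 16-fold or more, 47 genes were called higher and 27 lower. The groups did not overlap for 7515 genes (50.8%), with the mutant higher for 26.5% and lower for 24.3% of all tested genes.

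The sets of genes called at 2-fold took opposite shares of the libraries, a description that follows from how they were chosen. The genes called at least 2-fold higher held 2.98%, 2.38% and 2.58% of the counts in the wild-type libraries and 8.07%, 8.22% and 7.93% in the mutant. The genes called at least 2-fold lower held 10.2%, 13.2% and 14.6% in wild type and 4.74%, 3.27% and 3.88% in the mutant. In the libraries with maternal B12 the first set held 3.18% to 3.48% and the second 11.9% to 14.5%.

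**Figure D1:**
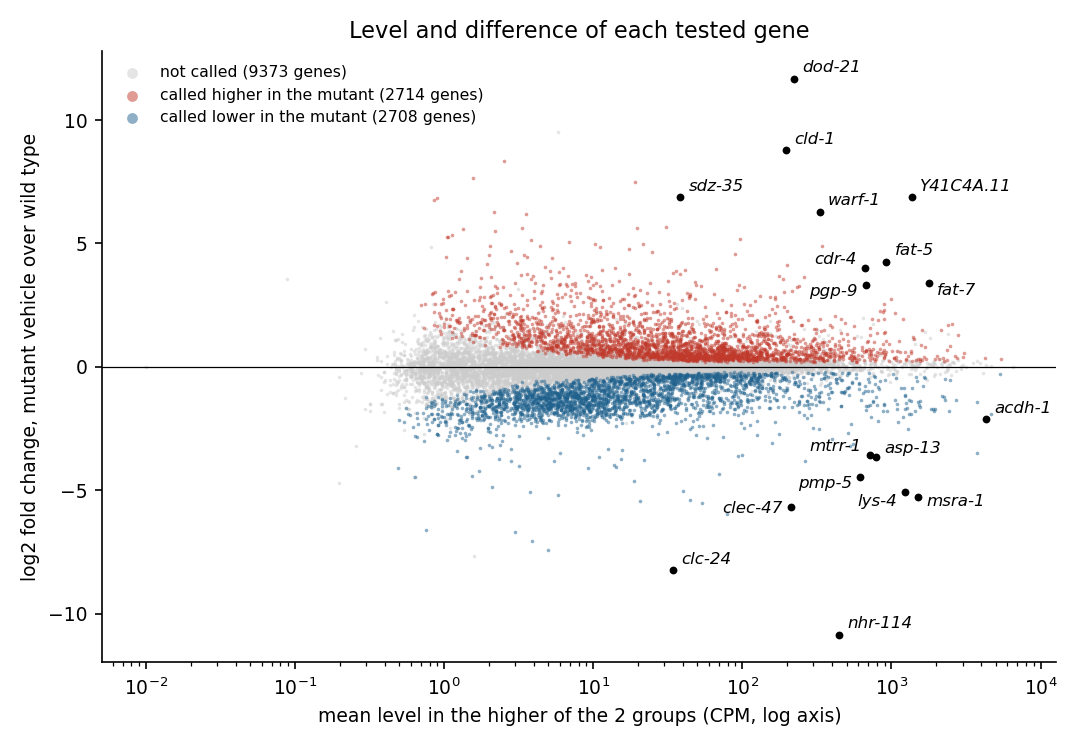
Mean level in the higher of both vehicle groups (CPM, log axis) against the log2 fold change of mutant vehicle over wild type, 1 point per tested gene, with called genes in red (2714 higher) and blue (2708 lower). *nhr-114* lies lowest at -10.84 and *dod-21* highest at 11.68, and *Y41C4A.11*, *fat-7* and *acdh-1* stand out among abundant genes.

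Beside the metabolic genes, the libraries differed in markers of sperm and of the late L4 cuticle. The summed level of 69 spermatogenesis genes was 1060, 1470 and 1830 CPM in wild type and 792, 371 and 522 CPM in the mutant. The summed level of 9 late L4 and adult cuticle genes was 6430, 9130 and 10200 CPM against 3310, 2230 and 2450 CPM. Of the cuticle genes 6 fell and 2 collagens of low level rose, *col-7* to 5.75 ± 4.17 and *col-62* to 6.74 ± 3.86 CPM, and the call of *col-7* was lost without wild-type replicate 3 (adjusted p = 0.0901) or mutant replicate 1 (adjusted p = 0.0907). Every mutant library was below every wild-type library in both sums, and in both sums wild-type replicate 1 lay closest to the mutant. The exact permutation test of each sum gave the smallest two-sided p that 3 against 3 libraries allow, p = 0.1 (adjusted p = 0.186 over 13 marker lists).

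Marker sums of the intestine, muscle and pharynx overlapped between the groups. Intestinal markers summed to 12700, 15900 and 12800 CPM in wild type and 12600, 14900 and 13000 CPM in the mutant (exact permutation p = 0.7, adjusted p = 0.758). Body-wall muscle markers summed to 13800, 13500 and 12900 CPM against 12200, 13200 and 12600 CPM (p = 0.2, adjusted p = 0.289), pharynx markers to 1120, 908 and 1010 CPM against 1080, 1080 and 1050 CPM (p = 0.5, adjusted p = 0.591), each by the same exact test. Neuronal markers were slightly higher in the mutant, at 836, 917 and 891 CPM against 804, 713 and 804 CPM, without overlap. The hypodermis and seam sum was lower, at 4150, 3290 and 3640 CPM against 6470, 6950 and 6490 CPM, and for both lists the exact permutation p was 0.1 (adjusted p = 0.186). Of its 13 tested members 3 were lower (23.1%), the abundant *dpy-13* and *sqt-3* and the hedgehog-related *wrt-2*. Another 3 were higher (23.1%, or 1 to 4 members when single libraries were left out), and the median of the list was -0.19. Both shares were near the 18.3% of all genes in each direction. Of the other lists, 3 more did not overlap and had the same p. Molting and timing genes summed to 10300, 9160 and 7280 CPM in wild type and 6510, 6640 and 6470 CPM in the mutant, and male somatic genes to 25.5, 20.3 and 17.2 and 15.2, 10.5 and 13.1 CPM. Coelomocyte and excretory genes were higher in the mutant, at 813, 966 and 862 against 798, 746 and 738 CPM. Every matched gene of the intestinal, muscle, neuronal and pharyngeal lists had counts, while hch-1, a protease gene of the hypodermis list, was at 0. The intestinal *opt-2* and the neuronal *unc-17* were not matched by name and are not in the sums. Within the flat intestinal sum 10 of 17 markers rose (58.8%) and 2 fell (11.8%), against 18.3% of all genes in each direction. The intestinal proton pump subunit *vha-6* was at 0.45 ± 0.10 and the brush border filament *ifb-2* at 0.60 ± 0.10. Without wild-type replicate 3 or mutant replicate 2 the number that rose was 6 or 5.

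Because the spermatogenesis level differed among libraries of one group, a fit with that level as a covariate was run as well. It called 559 genes (3.78%), 425 (2.87%) higher and 134 (0.906%) lower, and 543 of the 5422 calls were kept in the same direction. Genotype and level overlap strongly in that fit, with a variance inflation of 5.97 for the genotype term against 1.33 without the covariate. Whether a call lost there follows the sperm level or the lower precision cannot be told apart.

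**Figure D2:**
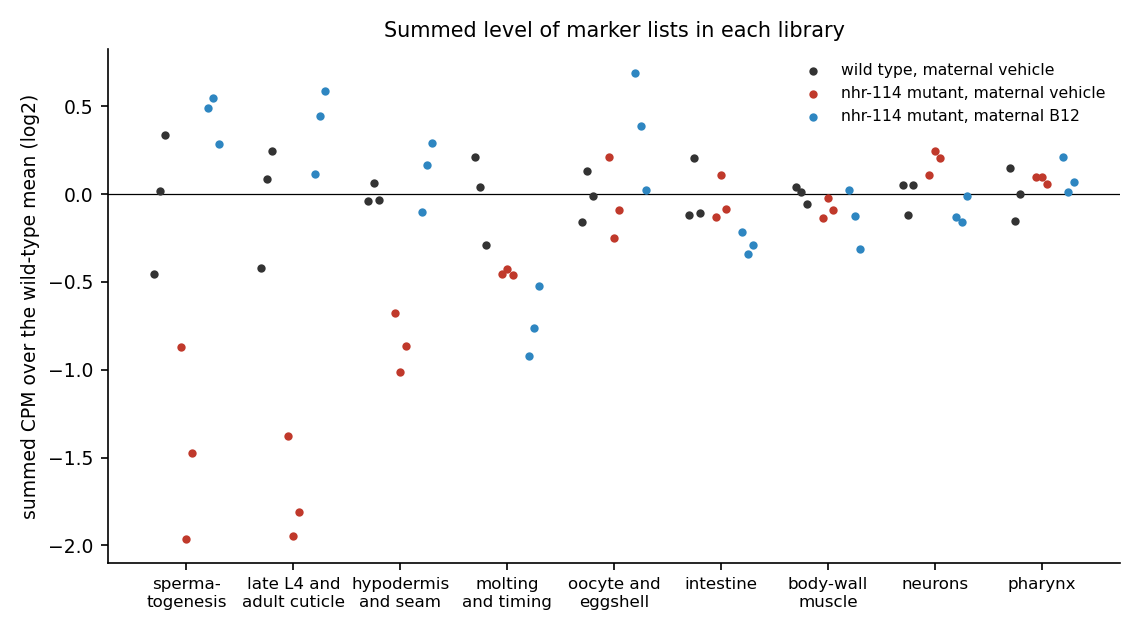
Summed CPM of 9 marker lists in each library, as log2 of its ratio to the wild-type mean, with 1 point per library and 3 libraries per group. The mutant vehicle libraries (red) lie below all wild-type libraries (black) for spermatogenesis, late L4 cuticle and hypodermis, while intestine, muscle and pharynx overlap.

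Genes that deliver B12 to its enzymes or reactivate it were among the steepest falls. *pmp-5* (chromosome V, 6662191 to 6665813), an ABC transporter related to human ABCD4, which takes part in the release of B12 from lysosomes, had 559, 682 and 619 CPM in the wild-type libraries and 26.3, 29.1 and 28.1 CPM in the mutant libraries. *mtrr-1*, the reductase that reactivates methionine synthase, had 612, 732 and 815 CPM against 59.2, 61.7 and 61.5 CPM. *mmaa-1*, whose human counterpart loads B12 onto the mutase, had 162, 170 and 197 CPM against 23.1, 28 and 29.1 CPM. All 3 wild-type values lay far above all 3 mutant values in each case. The log2 fold changes were -4.48 ± 0.16 (SE) for *pmp-5* (adjusted p = 7.21e-08), -3.56 ± 0.11 for *mtrr-1* (adjusted p = 2.42e-08) and -2.72 ± 0.13 for *mmaa-1* (adjusted p = 2.21e-07). *cblc-1*, counterpart of the human B12 chaperone MMACHC, fell from 97.4 ± 1.72 to 20.2 ± 1.58 CPM (SD, n = 3). With the covariate these 4 calls were kept, at -4.40, -3.38, -2.82 and -2.42 on the log2 scale.

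The enzymes of B12-dependent propionate breakdown themselves were mostly not called. The mutase *mmcm-1* had 144, 144 and 146 CPM in wild type and 131, 137 and 140 CPM in the mutant, and it was not called (adjusted p = 0.350). The adenosyltransferase *mmab-1* (-0.18 ± 0.11, adjusted p = 0.212) and the epimerase *mce-1* (-0.05 ± 0.18, adjusted p = 0.863) were not called either. The carboxylase subunit *pcca-1* rose by 0.42 ± 0.07, and *mrp-5*, which exports B12 from the intestine toward the embryos, rose by 0.50 ± 0.12. Of the 9 genes of B12 handling and canonical propionate breakdown, 2 rose (22.2%) and 3 fell (33.3%), against 18.3% of all genes each way.

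With maternal B12 the mutant kept low levels of the B12 handling genes. *pmp-5* had 66.8, 71.3 and 47 CPM in those libraries, *mtrr-1* 55.7, 54.9 and 55.1 CPM, *mmaa-1* 26.3, 29.1 and 32.4 CPM and *cblc-1* 13.1, 12.26 and 12.9 CPM. None of these 12 values reached the lowest wild-type value of its gene.

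**Figure D3:**
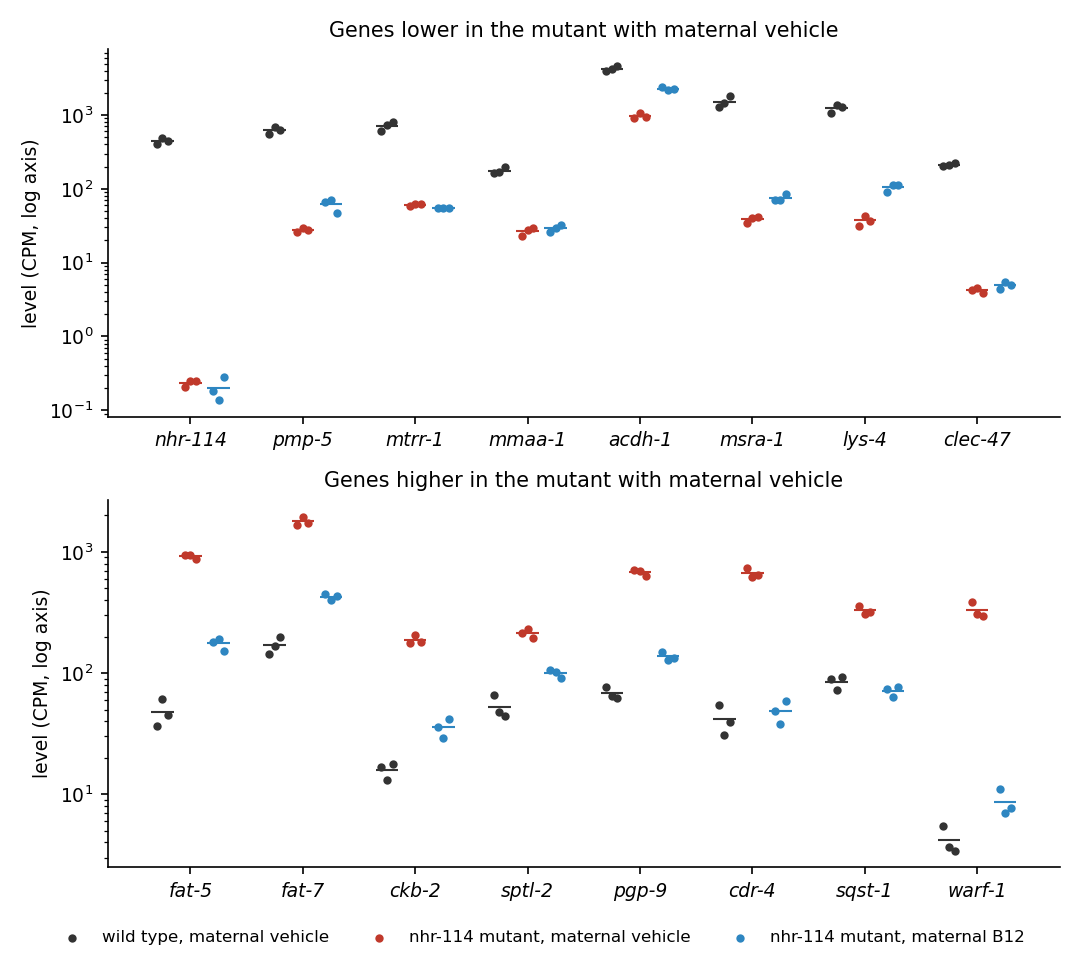
Levels of 16 genes in each library (CPM, log axis), with 1 point per library, a line at the mean of each group of 3, and genes lower in the mutant above and higher below. In the upper panel *mtrr-1*, *mmaa-1* and *clec-47* stayed low with maternal B12 (blue), and in the lower panel *sqst-1* and *cdr-4* with B12 overlapped wild type.

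Around methionine synthase, the downward calls reached the cycle and the folate enzymes that feed it. In the methionine cycle 4 of 7 genes fell (57.1%) and none rose, against 18.3% of all genes in each direction. Methionine synthase *metr-1* had 1026, 1063 and 1363 CPM against 571, 690 and 647 CPM (-0.85 ± 0.12, adjusted p = 3.31e-04), and the S-adenosylmethionine synthetase *sams-1* fell from 1490 ± 166 to a mean of 1008 ± 129 CPM. *sams-3* and *sams-4*, S-adenosylmethionine synthetases with near-identical sequences, were not called, at -0.02 ± 0.10 and -0.08 ± 0.13. Of 12 folate and glycine cleavage genes, 2 rose (16.7%) and 4 fell (33.3%), against 18.3% of all genes in each direction. The serine hydroxymethyltransferase *mel-32* had 1666, 1974 and 1893 CPM in wild type and 523, 621 and 561 CPM in the mutant. The methylenetetrahydrofolate reductase *mthf-1* had 786, 708 and 752 CPM against 260, 295 and 295 CPM. Both pairs of groups were apart, and both calls were kept with the covariate (-1.81 and -1.56).

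Entry enzymes of transsulfuration and of polyamine synthesis, which draw on the cycle, did not all move alike. The cystathionine β-synthase *cbs-1* had 32.5, 27.8 and 33.4 CPM in wild type and 139, 176 and 158 CPM in the mutant, a 5.05-fold difference (adjusted p = 2.58e-07). The second cystathionine β-synthase gene, *cbs-2*, was lower at 5.05 ± 1.58 against 9.59 ± 2.92 CPM, a call near the threshold (adjusted p = 0.0473). It was lost without wild-type replicate 2 or 3, any mutant replicate, or B12 replicate 1 or 2 (adjusted p from 0.0543 to 0.167). The S-adenosylmethionine decarboxylase *smd-1*, which commits that metabolite to polyamines, rose from 542 ± 51.1 to 1115 ± 112 CPM. Within the 12 tested genes of transsulfuration and sulfide handling, 3 rose (25%) and 4 fell (33.3%), against 18.3% of all genes in each direction. The number that fell was 2 when any one of wild-type replicates 2 and 3 or the mutant replicates was left out. The cystathionine γ-lyase *cth-1* rose (1.05 ± 0.12), and the sulfite oxidase *suox-1* fell (-0.56 ± 0.09).

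All 5 genes of the B12-independent propionate shunt fell, with a median of -1.62, and all 5 were called with the covariate too. The shunt dehydrogenase *acdh-1* had 4010, 4186 and 4633 CPM in wild type and 926, 1072 and 942 CPM in the mutant, and the hydratase *ech-6* had 1506, 1539 and 1582 CPM against 486, 525 and 494 CPM. With maternal B12 *acdh-1* stood at 2364, 2183 and 2261 CPM, between both vehicle groups without overlap. The shunt's regulators did not share 1 direction. *nhr-68* fell (-0.98 ± 0.11, adjusted p = 9.34e-05) and *nhr-10* rose (0.62 ± 0.13, adjusted p = 0.00331). In branched-chain amino acid breakdown 6 of 9 fell and none rose, 2 of them shared with the shunt, and in the tryptophan and kynurenine list 5 of 11 fell and 1 rose, against 18.3% of all genes in each direction. *tdo-2*, the first enzyme of tryptophan breakdown, had 163, 171 and 251 CPM in wild type and 105.5, 103 and 98.5 CPM in the mutant, and stood at 263, 329 and 370 CPM with maternal B12, above both vehicle groups.

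Most fatty acid synthesis genes rose, from citrate cleavage to desaturation. Of 13 tested genes 11 rose (84.6% against 18.3% of all genes), none fell, and 7 were called with the covariate. *acly-1*, an ATP-citrate lyase, had 245, 259 and 195 CPM in wild type and 1040, 1138 and 999 CPM in the mutant. The acetyl-CoA carboxylase *pod-2* had 898, 801 and 595 CPM against 1968, 2395 and 2090 CPM. The stearoyl-CoA desaturase *fat-7* had 142.3, 167 and 198 CPM against 1660, 1952 and 1744 CPM. The mutant libraries exceeded all wild-type libraries in each case, by 4.55-fold, 2.81-fold and 10.6-fold. Counts may be shared between *fat-6* and *fat-7*, whose sequences are close, while the palmitoyl-CoA desaturase *fat-5* alone rose 19.2-fold (adjusted p = 2.21e-07). The exceptions were the fatty acid synthase *fasn-1*, whose wild-type values of 1192, 795 and 693 CPM spanned the mutant values of 1068, 1146 and 1053 CPM, and the mediator subunit *mdt-15* at 0.03 ± 0.08. Without wild-type replicate 1 *fasn-1* was called as well, at 0.54 (adjusted p = 0.00230). With maternal B12 the means of *acly-1* (426 ± 96.0 CPM), *fat-7* (426 ± 22.6 CPM) and *fat-5* (175 ± 20.25 CPM) lay between those of the vehicle groups. The mean of *pod-2* (601 ± 68.2 CPM) lay below its wild-type mean of 765 ± 154 CPM.

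Among transcriptional regulators of lipid metabolism 7 of 11 rose (63.6%) and 2 fell (18.2%), against 18.3% of all genes in each direction. *sbp-1*, the worm's SREBP, had 48.4, 49.9 and 45.8 CPM in wild type and 92.1, 100 and 97.6 CPM in the mutant, a 2.01-fold rise (adjusted p = 9.48e-06). The nuclear receptors *nhr-49* and *nhr-80*, which support desaturase expression, rose 2.01-fold and 1.98-fold, and *nhr-66* fell (-0.41 ± 0.10). With maternal B12 *sbp-1* was at 57.3 ± 2.45 CPM, still above wild type (48.0 ± 2.03 CPM). *nhr-49* was then at 104 ± 3.86 CPM, below its wild-type mean (114.8 ± 6.55 CPM). Polyunsaturated fatty acid genes rose in 5 of 5 cases, with the Δ12 desaturase *fat-2* at 1.72 ± 0.08. With the covariate only the call of *fat-2* was kept. The others were at 0.28 to 0.66 there, against 0.68 to 1.03 without it. For the branched-chain fatty acids made from amino acid precursors, the elongases *elo-5* (0.49 ± 0.12) and *elo-6* (1.23 ± 0.13) and the synthetase *acs-1* (0.72 ± 0.12) rose. *dbt-1*, an enzyme subunit that supplies those precursors, fell (-0.39 ± 0.08). With the covariate none of these calls was kept, with *elo-5* at 0.11, *elo-6* at 0.69, *acs-1* at 0.61 and *dbt-1* at -0.48. *idh-1*, an isocitrate dehydrogenase that makes NADPH, rose from 659 ± 178 to 1427 ± 145 CPM.

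Membrane lipid synthesis rose as well. In phosphatidylcholine synthesis 9 of 13 genes rose (69.2%) and 1 fell (7.69%), against 18.3% of all genes in each direction. The choline kinase gene *ckb-2* had 16.8, 13 and 17.7 CPM in wild type and 175, 204 and 179 CPM in the mutant, and *pcyt-1*, the rate-limiting enzyme of the path, had 113.2, 94.7 and 102 CPM against 276, 327 and 299 CPM. The methyltransferases that make phosphocholine at the expense of S-adenosylmethionine split: *pmt-1* rose 2.83-fold and *pmt-2* fell (-0.46 ± 0.08). Of the 9 genes that rose, only the calls of *ckb-2*, *pcyt-1* and *pmt-1* were kept with the covariate. The others that rose were at 0.08 to 0.58 there, against 0.31 to 0.70 without it. The call of *pmt-2* was not kept either (adjusted p = 0.0844), though its log2 fold change was larger there (-0.60).

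Sphingolipid genes showed the same direction, with 10 of 19 higher (52.6%), none lower and a median of 0.51. The share over all genes was 18.3% in each direction. The 3 serine palmitoyltransferase genes, which make the first sphingoid base, all rose. *sptl-2* had 66.4, 47.9 and 44.5 CPM in wild type and 212, 230 and 196 CPM in the mutant, and *sptl-1* and *sptl-3* rose 2.09-fold and 2.05-fold. Downstream, the ceramide glucosyltransferase *cgt-1* (1.95 ± 0.19) and the acid ceramidase *asah-1* (1.00 ± 0.20) rose. The covariate fit kept 3 calls, those of *sptl-1*, *sptl-2* and *cgt-1*. With maternal B12 *sptl-1* was at 284 ± 7.65 CPM and *sptl-3* at 104 ± 1.91 CPM, below their wild-type means of 331 ± 24 and 118 ± 15.6 CPM.

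Fat storage and breakdown genes were split. *plin-1*, the lipid droplet coat protein perilipin, had 174, 188 and 207 CPM in wild type and 784, 717 and 707 CPM in the mutant (1.95 ± 0.09, adjusted p = 2.21e-07). The triglyceride lipase *atgl-1* rose 2.52-fold, while the hormone-sensitive lipase *hosl-1* fell from 64.4 ± 5.36 to 24 ± 2.56 CPM. Among lysosomal lipases *lipl-5* rose from 310 ± 36.7 to 1192 ± 189 CPM and *lipl-2* by 2.61 ± 0.28, and *lipl-4* (-1.77 ± 0.22) and *lipl-3* (-1.85 ± 0.29) fell. In mitochondrial β-oxidation 6 of 16 genes rose and 2 fell, and in the peroxisomal path 5 and 4 of 14. The share over all genes was 18.3% in each direction. For mitochondrial import of fatty acids, the carnitine palmitoyltransferase gene *cpt-1* rose 2.21-fold, and *cpt-3* had 2.01, 2.43 and 3.73 CPM against 31.6, 51.7 and 41.5 CPM. The dehydrogenase gene *hacd-1* had 133, 146 and 146 CPM against 426, 553 and 479 CPM. In the peroxisome *acox-1.2*, an acyl-CoA oxidase, fell from 296 ± 70.5 to 53.5 ± 6.45 CPM and was at 291 ± 20.5 CPM with maternal B12. The acyltransferase-family gene *acl-12* rose 5.32-fold, and the secreted fatty acid and retinol binding protein *far-3* rose 7.15-fold.

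In carbohydrate metabolism the calls were mostly upward. Of 10 genes of the glyoxylate cycle, gluconeogenesis and sugar storage 4 rose and 1 fell, against 18.3% of all genes in each direction. The trehalose synthase *tps-1* had 39.4, 29 and 25.3 CPM in wild type and 69.3, 81.1 and 76.8 CPM in the mutant, and the glucose-phosphate isomerase *gpi-1* rose from 270 ± 22.4 to 460 ± 4.39 CPM. *icl-1*, the glyoxylate cycle enzyme, was not called (0.48 ± 0.22, adjusted p = 0.120), but was called without wild-type replicate 3 (0.73, adjusted p = 0.0181).

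**Figure D4:**
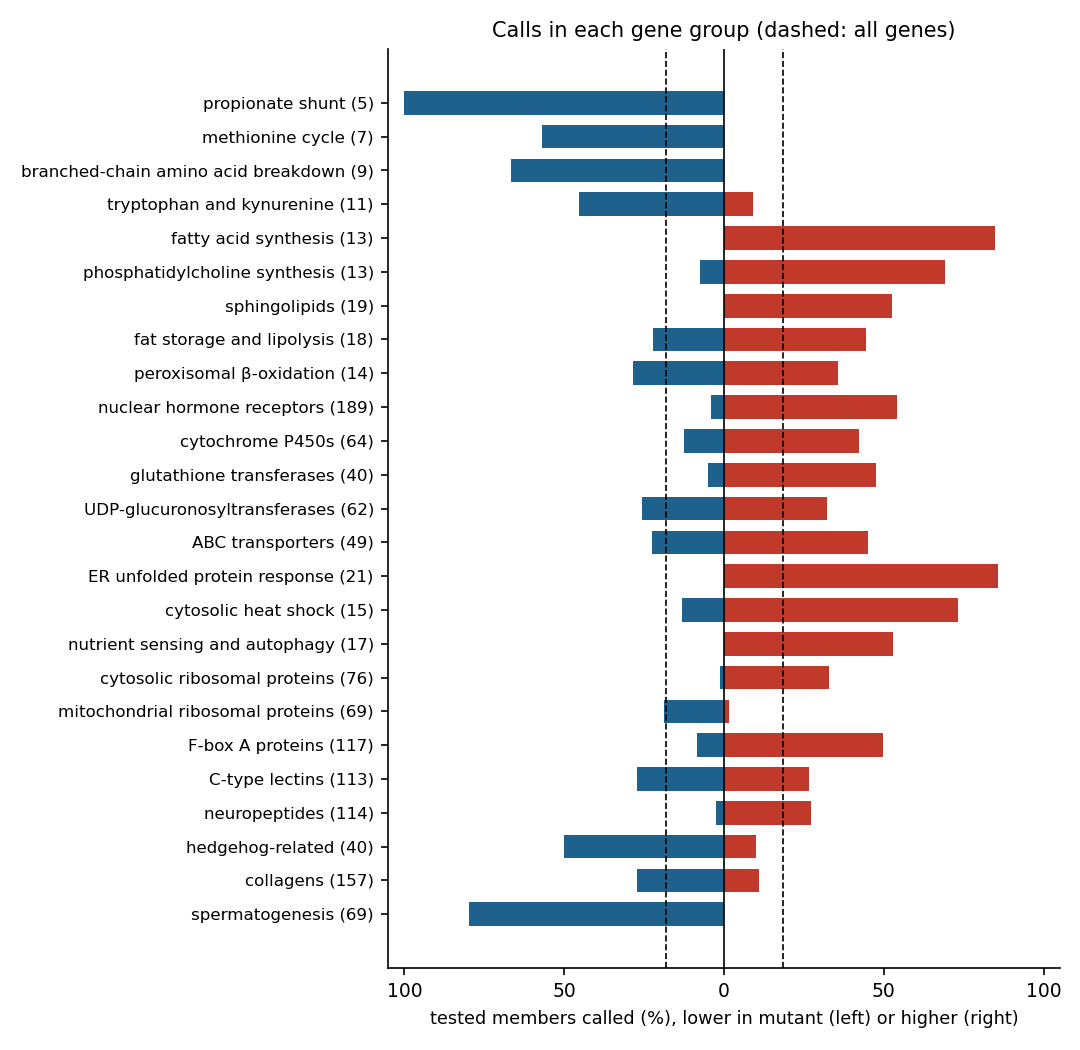
Share of tested members called lower (blue, left) or higher (red, right) in 25 gene groups, with the number tested in brackets and dashed lines at the shares over all genes, 18.3% in each direction. Bars far past the lines on the right include fatty acid synthesis and the ER unfolded protein response, and on the left the propionate shunt and spermatogenesis.

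The nuclear receptor family to which NHR-114 belongs shifted upward. Of 189 receptor genes tested, 102 rose (54%) and 8 fell (4.23%), *nhr-114* included, against 18.3% of all genes in each direction. The median was 0.60 against 0.01 over all genes. At least 2-fold rises made up 37 of the 102. *nhr-115* had 8.33, 6.01 and 7.39 CPM in wild type and 29.7, 35.4 and 32.5 CPM in the mutant, and *nhr-19* had 14, 8.62 and 14.7 CPM against 34, 38.2 and 38.2 CPM. *nhr-8*, a receptor of the xenobiotic response and cholesterol balance, rose 1.91-fold. Besides *nhr-114*, *nhr-234* fell most, from 18.2 ± 3.96 to 3.87 ± 0.717 CPM. The covariate fit called 7 receptors higher and 3 lower, and the sperm and cuticle marker sums moved with genotype in the same libraries. Their part in the family's shift was not tested.

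Detoxification genes of oxidation, glutathione conjugation and export were more often higher than lower. Cytochrome P450 genes rose in 27 of 64 cases (42.2%) and fell in 8 (12.5%), against 18.3% of all genes in each direction. Glutathione transferases rose in 19 (47.5%) and fell in 2 (5%) of 40. UDP-glucuronosyltransferases were more even, with 20 higher (32.3%) and 16 lower (25.8%) of 62, against 18.3% of all genes in each direction. The P-glycoprotein *pgp-9* (chromosome V, 17755892 to 17764751), which had the smallest p of all genes that rose, had 77.3, 65.2 and 62.5 CPM in wild type and 710, 693 and 634 CPM in the mutant (3.31 ± 0.11, adjusted p = 2.65e-08). *cyp-33C8* had 19, 7.35 and 7.81 CPM against 215, 192 and 192 CPM, and *ugt-62* had 248, 144 and 165 CPM against 945, 835 and 858 CPM. No wild-type library reached the mutant range of these 3 genes. ABC transporters as a family rose in 22 of 49 cases (44.9%) and fell in 11 (22.4%, near the share over all genes). Against the direction of the P450 family, *cyp-35B1* and *cyp-35A5*, neighbours on chromosome V, fell 5.18-fold and 4.07-fold. Counts of close paralogs in these families are uncertain.

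Of 16 genes of metal handling 9 rose (56.2%) and none fell, against 18.3% of all genes in each direction. The cadmium-responsive gene *cdr-4* had 54.8, 30.5 and 39.3 CPM in wild type and 739, 621 and 639 CPM in the mutant, and *cdr-2* rose 9.67-fold. With maternal B12 *cdr-4* had 49, 37.9 and 59.3 CPM, within the wild-type range apart from 1 library. Metallothionein *mtl-1* rose but stayed low, at 2.21 ± 0.411 CPM.

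Antimicrobial and secreted intestinal proteins showed some of the steepest changes in both directions. The lysozyme genes *lys-4*, *lys-5* and *lys-6* are consecutive on chromosome IV (11621429 to 11627947) and had log2 fold changes of -5.05, -4.61 and -5.42. *lys-4* had 1066, 1372 and 1277 CPM in wild type and 31.7, 43.0 and 37 CPM in the mutant. *lys-7*, a lysozyme of pathogen defence, fell (-1.18 ± 0.21), and *ilys-5*, of the invertebrate type, fell from 1286 ± 156 to 227 ± 28.5 CPM. In contrast *lys-1* and *lys-2* rose by 0.46 and 0.84. The C-type lectin gene *clec-47* had 201, 212 and 223 CPM in wild type and 4.23, 4.52 and 3.83 CPM in the mutant, the smallest p of all genes after *nhr-114* (adjusted p = 5.46e-10). The lectin family as a whole split evenly, with 30 higher (26.5%) and 31 lower (27.4%) among the tested members. The share over all genes was 18.3% in each direction.

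On chromosome IV *dod-21* and the adjacent *cld-1* were nearly silent in wild type. *dod-21*, named for its position downstream of the insulin pathway factor DAF-16, held 0, 3 and 0 counts in wild type but 3617, 3178 and 3550 in the mutant, which put the mutant at 3610 times wild type (counting interval 1230 to 17500). It had 30, 5 and 21 counts with maternal B12. *cld-1* had 0.886, 0 and 0.414 CPM in wild type and 220, 190 and 180 CPM in the mutant. A run of 4 genes on chromosome V (4034476 to 4043601) that ends with the infection response gene *irg-2* also rose, with *C49G7.7* from 5 counts in all of wild type to 885 in the mutant. A nearby run of *nlp-29*, *nlp-28* and *nlp-27*, epidermal antimicrobial peptide genes, rose by 2.73, 4.85 and 3.01. *nlp-27* had 11, 1.94 and 2.96 CPM in wild type, highest in replicate 1, and 53.1, 37.7 and 38 CPM in the mutant, and its call was lost with the covariate (adjusted p = 0.326). In the list of immune effectors 16 of 28 rose (57.1%) and 5 fell (17.9%), against 18.3% of all genes in each direction.

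Several lysosomal and digestive proteases fell. The aspartyl protease gene *asp-13* had 649, 896 and 822 CPM in wild type and 59, 72.5 and 57.1 CPM in the mutant, and its relative *asp-12* had 67.2, 130 and 82.5 CPM against 8.26, 7.97 and 6.85 CPM. The cathepsin B-like *cpr-4* fell 2.92-fold, while *cpr-3* rose 3.60-fold. In the family 7 of 21 fell (33.3%) and 4 rose (19%, near the 18.3% of all genes in each direction). Without wild-type replicate 1 the number that fell was 11. *msra-1*, a methionine sulfoxide reductase that repairs oxidised methionine, had 1290, 1448 and 1799 CPM in wild type and 34.6, 40.7 and 41.3 CPM in the mutant, a 38.9-fold fall (adjusted p = 2.42e-08). With maternal B12 it had 70.4, 70.2 and 85.5 CPM. Of 22 oxidative stress and glutathione genes 12 rose (54.5%) and 1 fell, *msra-1*, against 18.3% of all genes in each direction. The number that fell was 2 without B12 replicate 2 or 3, with RLE or upper quartile scaling and with DESeq2. The factor *skn-1* (0.70 ± 0.09) and the peroxiredoxin *prdx-2* (0.34 ± 0.08) rose.

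Protein folding genes rose broadly, those of the ER mostly by less than 2-fold. In the ER unfolded protein response 18 of 21 genes rose (85.7%) and none fell, with a median of 0.46. The share over all genes was 18.3% in each direction. The ER chaperone *hsp-4*, the worm's BiP, had 311, 345 and 344 CPM in wild type and 945, 871 and 882 CPM in the mutant, and the response factor *xbp-1* rose 2.04-fold. With RLE or upper quartile scaling, or without wild-type replicate 3, 1 member fell. The covariate fit kept 5 calls of that list. Among the calls it lost, the ER chaperone *enpl-1* went from 0.80 to 0.66 and the degradation factor *sel-1* from 0.52 to 0.60. Both are examples only and do not stand for the rest. The other lost calls are not given here. For all of them the spermatogenesis level and the lower precision cannot be told apart. In the cytosol 11 of 15 heat shock genes rose (73.3%), 6 of them at least 2-fold, and 2 fell (13.3%). The small heat shock protein *sip-1* had 7.03, 9.35 and 12.24 CPM against 112, 77.7 and 93.4 CPM, while *hsp-12.3* fell 3.95-fold. In the mitochondrial response 5 of 10 genes rose (50%) and none fell. Its factor *atfs-1* had 57, 54 and 61.2 CPM against 109, 122.4 and 113.5 CPM, the chaperone *hsp-6* rose (0.54 ± 0.12), and *hsp-60* was at -0.01 ± 0.12 without a call. Counts of the hsp-16 genes, which come in near-identical pairs, are uncertain.

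Of 17 nutrient sensing and autophagy genes 9 rose (52.9%), none fell and 8 were not called, against 18.3% of all genes in each direction. Without wild-type replicate 2 there was 1 that fell. *sqst-1*, the p62 cargo receptor, had 89.6, 72.3 and 92.3 CPM in wild type and 360, 310 and 319 CPM in the mutant (1.96 ± 0.12, adjusted p = 1.42e-06), and it was at 73.4, 63.3 and 76.6 CPM with maternal B12. The ubiquitin-like autophagosome proteins *lgg-1* and *lgg-2* rose 2.01-fold and 1.81-fold, and *hlh-30*, the worm's TFEB, rose by 0.37 ± 0.07. The kinase gene *let-363* (TOR) was not called, at 0.11 ± 0.13. In insulin signalling 2 of 12 genes rose (16.7%) and 1 fell (8.33%), against 18.3% of all genes in each direction. The number that fell was 0 to 2 when single libraries were left out, and *daf-16* was at -0.02 ± 0.09.

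Among translation genes the cytosolic ribosome was more often higher. Of 76 cytosolic ribosomal protein genes 25 rose (32.9%) and 1 fell, and with upper quartile scaling 17 rose and 2 fell. Leaving out wild-type replicate 3 or any mutant replicate brought the number that rose to 15 or 16. Of 69 mitochondrial ribosomal protein genes 1 rose and 13 fell (18.8%, near the 18.3% of all genes), and a fit on TPM values called 26 of them lower. Without mutant replicate 1 or 3 the number that fell was 7 or 8. *mrps-27* had 109, 102 and 107 CPM in wild type and 75.4, 79.7 and 76.1 CPM in the mutant, and *mrps-5*, the member that rose, had 81.8, 74.3 and 85.6 CPM against 110, 113.7 and 111 CPM. Respiratory chain subunits (3 higher and 1 lower of 38) and proteasome subunits (1 and 2 of 33) had fewer calls than genes overall.

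Some gene families of protein turnover and intracellular defence were more often higher than lower. F-box A genes, which encode substrate adaptors of ubiquitin ligases, rose in 58 of 117 cases (49.6%) and fell in 10 (8.55%). The share over all genes was 18.3% in each direction, and the median of these F-box genes was 0.67. Restricted to genes of at least 5 CPM in 3 libraries the number that rose was 32, and with the covariate it was 15. The restriction left 11004 of 14795 genes tested, so part of the drop may be members no longer tested. BATH proteins, also adaptors of ubiquitin ligases, stayed near the background, with 10 of 52 higher (19.2%), or 6 without mutant replicate 2, and a median of 0.15. Against the F-box direction at high level was *fbxa-72*, which had 189, 151 and 160 CPM in wild type and 32.3, 36.1 and 36.6 CPM in the mutant. Genes of the pals family, known from the response to intracellular pathogens, rose in 11 of 22 cases (50%), with *pals-24* at 1.39 ± 0.18. The number was 2 with the covariate and 4 under the 5 CPM restriction, where members may again have gone untested. Neuropeptide genes rose in 31 cases (27.2%) and fell in 3, with the antimicrobial nlp genes among them, and without mutant replicate 2 the number that rose was 20. Of the listed neuronal markers, 3 of 20 rose (15%) and 1 fell (5%), below the 18.3% of all genes in each direction.

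Sperm genes fell as a block. Of 69 spermatogenesis genes 55 fell (79.7%) and none rose (median -1.41), against 18.3% of all genes in each direction. In a fit of the 6 vehicle libraries or without B12 replicate 1 or 3, 1 was higher. Of major sperm protein genes 28 of 28 fell, and their near-identical sequences make single counts uncertain. No sperm call was kept with the covariate, which is built from the same list. Upstream of sperm formation the pattern was mixed. *fog-1*, which directs germ cells to the sperm fate, had 3.90, 1.70 and 1.95 CPM in wild type and 11.7, 10.9 and 13.8 CPM in the mutant, a 4.81-fold rise (adjusted p = 2.04e-04). *gld-1*, a translational regulator of meiotic entry, fell 2.04-fold (adjusted p = 0.0209), a call lost without wild-type replicate 2 (adjusted p = 0.0535). The Argonaute gene *alg-3*, active in sperm formation, fell 2.19-fold, a call lost without wild-type replicate 2 (adjusted p = 0.0505) or mutant replicate 3 (adjusted p = 0.0560). Germline stem cell and meiotic entry genes, *gld-1* included, were mostly not called, with 1 higher (4.55%) and 4 lower (18.2%) of 22. The share over all genes was 18.3% in each direction. The number lower was 7 in a fit of the 6 vehicle libraries and 8 without B12 replicate 3. For 10 of the 22 every mutant library lay below every wild-type library, against 24.3% of all genes. The stem cell receptor *glp-1* was at -0.03 ± 0.18. Of 18 Argonaute genes 2 rose (11.1%) and 4 fell (22.2%), against 18.3% of all genes in each direction. Without wild-type replicate 2 or mutant replicate 3 the number that fell was 2. The Argonaute gene *vsra-1* had 37.8, 26.6 and 25.5 CPM against 74.8, 72.7 and 77.9 CPM. Oocyte and eggshell genes gave 1 higher and 2 lower of 17, fewer than the 18.3% of all genes in each direction, and the number lower was 1 to 5 when single libraries were left out, with 5 without mutant replicate 1.

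Cuticle and molting genes fell in part. Hedgehog-related genes, secreted mainly by the epidermis, fell in 20 of 40 cases (50%) and rose in 4 (10%), against 18.3% of all genes in each direction. The number that rose was 0 to 7 when single libraries were left out. *wrt-6* had 367, 566 and 683 CPM in wild type and 126, 92.3 and 110 CPM in the mutant, with wild-type replicate 1 the lowest of its group. The blister collagen *bli-1*, which is built into the adult cuticle, had 1786, 2367 and 1666 CPM against 613, 512 and 551 CPM, and *mlt-10* fell 4.72-fold. Of 157 collagens 43 fell (27.4%) and 17 rose (10.8%), against 18.3% of all genes in each direction. Without wild-type replicate 1 these counts were 49 and 33. The abundant cuticle genes *dpy-5* and *sqt-3* fell from 2258 ± 527 and 2711 ± 269 CPM to 962 ± 246 and 1065 ± 199 CPM. In the timing pathway *lin-29* fell (-0.55 ± 0.13), and its upstream repressor *lin-41* rose (0.93 ± 0.21). The spermatogenesis and cuticle sums given above moved with these genes, and their part in the result was not tested.

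Yolk protein genes fell in part. *vit-6* had 279, 650 and 602 CPM in wild type and 70.1, 99.6 and 72.3 CPM in the mutant, and *vit-3* had 20.5, 62.8 and 127 CPM against 4.91, 4.02 and 1.42 CPM. Both fell (adjusted p = 0.00108 and 0.00340), and both wild-type groups spread widely. *vit-2* was not called, at 214 ± 87.3 and 349 ± 63.5 CPM. Counts may be shared among the close paralogs *vit-3*, *vit-4* and *vit-5*. Of 6 vitellogenins 3 fell (50%, against 18.3% of all genes) and none rose, and no call was kept with the covariate. Their summed level overlapped between the groups, at 478, 1140 and 1100 CPM in wild type and 419, 582 and 424 CPM in the mutant. The exact permutation test of that sum gave p = 0.2 (adjusted p = 0.289).

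Several of the largest changes were in genes without an assigned role here. *Y41C4A.11*, singled out after its values were seen, had 15.3, 9.29 and 10.2 CPM in wild type and 1697, 1145 and 1273 CPM in the mutant, a 118-fold rise (adjusted p = 1.04e-06). *warf-1* had 5.49, 3.70 and 3.43 CPM against 387, 308 and 295 CPM, and *sdz-35* rose 118-fold. *delm-2*, of the DEG/ENaC channel family, had 0.650, 0.121 and 0.414 CPM against 17.3, 21.8 and 20.1 CPM. Among the falls, *E01G4.6*, with the highest wild-type level among genes that fell at least 2-fold, had 3200, 5230 and 5631 CPM against 1531, 1048 and 1172 CPM. *Y39B6A.1* had 2737, 4561 and 3861 CPM against 263, 425 and 304 CPM. *T05E12.6* had 496, 591 and 559 CPM against 66.4, 60.7 and 63.1 CPM. *dop-4*, a dopamine receptor gene, fell from 14.3 ± 1.88 to 0.854 ± 0.135 CPM. *clc-24*, of the claudin-like family, held 468, 593 and 674 counts in wild type but 4, 1 and 0 in the mutant.

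Called genes were spread unevenly over the chromosomes. On chromosome V, which carries *nhr-114* and many nuclear receptor, F-box and detoxification genes, 364 of 2964 tested genes rose at least 2-fold, against 4.24% to 7.84% on the other nuclear chromosomes. Calls of at least 2-fold in the downward direction ranged from 7.01% of genes on X to 15.7% on IV. In 19 places 3 or more neighbouring tested genes were all called and changed at least 4-fold in the same direction, 12 of them on V.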

How the data were processed

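Each library gave one deposited table of estimated counts and effective lengths per transcript, made with kallisto 0.46.0 against WormBase WS245, per the labels. The authors also deposited a table of CPM values per gene. Transcript lengths in bases are as deposited. The estimated counts of 30939 transcripts were summed to 20444 genes and rounded, and 279 genes (0.165% of counts) had no match in the WBcel235 annotation and kept their own identifiers. The deposited CPM and CPM computed from the counts differed by at most 1% for 98.4% of 14394 genes compared. TPM for one alternative was computed from counts and lengths. Depth limits low genes most, and counting intervals cover counting error only.

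Genes were tested in R 4.3.3 with edgeR 4.0.16 (filterByExpr, TMM scaling, robust quasi-likelihood fit over all 9 libraries, 3 groups) and Benjamini-Hochberg adjustment at 0.05, with limma 3.58.1 and DESeq2 1.42.0 as alternatives. Sums of marker lists were compared by exact permutation in scipy 1.17.1. Log2 fold changes are mutant over wild type with their SE, and means are given with the SD over 3 libraries. The comparison and the gene lists were chosen with earlier results of these data known. Lists of up to 25 genes could be described whole, with values for at most 6 by smallest adjusted p. Families and longer lists contributed at most 4 called genes in each direction. Over all genes, the 12 largest changes, the 10 most abundant and the 6 smallest p in each direction could be named, with runs of adjacent genes. The labels state no strand setting, so counts of overlapping and antisense genes are uncertain.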

Additional observations from a re-analysis of the deposited data

How the results depend on the processing

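With the spermatogenesis level as a covariate, 559 genes were called, 425 higher and 134 lower, of which 485 changed at least 2-fold, 362 higher and 123 lower. The share of calls that were higher was then 76%, against 50.1% as reported. It was 41.2% for limma on TPM and 42.2% when libraries were scaled by upper quartile. The median over all genes moved by -0.10 and -0.08 in that pair. Under the covariate 78 of the 138 called genes named in the text stayed called in the same direction and 60 did not, and how much of that loss follows precision was not tested. Under RLE or upper quartile scaling and DESeq2 all 138 kept their call, as did the 135 that limma on deposited CPM measured. With no filter, with the 6 vehicle libraries alone or with limma on TPM 137 did, the exceptions being *col-7* and, on TPM, *cbs-2*. Single libraries left out gave 4193 to 5673 called genes, 2055 to 2833 higher and 2091 to 2840 lower, and the calls lost among named genes were those of *alg-3*, *gld-1*, *cbs-2* and *col-7*. Of 164 counts of list members called in one direction, 4 to 32 moved by over 1.5 times under settings other than the covariate, which moved 138. Across the 19 settings other than the covariate, 1469 genes were called higher and 1503 lower in every one. Correlations of deviations ran from -0.22 to 0.37 between same-numbered libraries and from -0.42 to 0.27 between the others. With 3 libraries in a group, these values cannot settle whether the numbers pair the samples. A fit with the replicate block called 5153 genes, 2640 higher and 2513 lower, and lost *cbs-2* and *col-7*. Genes at or below 3 counts in a group have no fitted fold that can be read as a bound.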
